A study of Oryza sativa with 6 samples.

Results

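Ascorbate peroxidases are haem enzymes that reduce hydrogen peroxide to water with ascorbate as the electron donor. Rice encodes 8 of them, APX1 to APX8, and all 8 were found by locus ID among the 57839 loci of the deposited count table. They were chosen as the named members of the family, with earlier results of these data known. Mature leaves of the mutant line osatg5-1 (3 libraries) were compared with mature leaves of wild-type plants, labelled WT (3 libraries). All plants stood in a paddy field under natural long days and were sampled at tillering. The labels name no cultivar, do not describe the mutation, and do not say how many mutant lines were used or whether replicates were separate plants, so the p-values below reflect the spread among these libraries, part of which may be technical.

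The oxidised ascorbate that the reaction leaves behind is recycled by monodehydroascorbate, dehydroascorbate and glutathione reductases. Plant cells keep separate ascorbate peroxidases close to each source of peroxide, which in a leaf are mainly the electron transport chain of the thylakoids and the oxidation of glycolate in peroxisomes. By what is known of the rice enzymes, APX1 and APX2 are cytosolic, APX3 and APX4 peroxisomal, APX7 stromal and APX8 bound to thylakoids in the chloroplast. APX5 and APX6 have been assigned to mitochondria or chloroplasts and are kept apart here. ATG5, after which the mutant is named, is a core protein of autophagy, the route by which plant cells deliver parts of the cytoplasm, including peroxisomes and pieces of chloroplast, to the vacuole.

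The osatg5-1 libraries held 31296258 to 39351357 counts and the WT libraries 30927816 to 31677943. The targeted gene and markers of leaf and other organs were not analysed here, because no table used pairs their names with the locus IDs, so neither the mutant label nor the tissue label was checked. For the same reason the ascorbate-recycling enzymes were not analysed here. Names of 3 of them are in the RefSeq gene table (assembly ASM3414082v1), which pairs 0 of the 57839 IDs. That table does list 1 gene under each of the names APX1 to APX8, on the same chromosome as the number in the locus ID in each case. The locus numbers place APX1 (LOC_Os03g17690) on chromosome 3, APX2 (LOC_Os07g49400) on 7, APX3 (LOC_Os04g14680) and APX7 (LOC_Os04g35520) on 4, APX4 (LOC_Os08g43560) on 8 and APX8 (LOC_Os02g34810) on 2. APX5 (LOC_Os12g07830) and APX6 (LOC_Os12g07820) lie on 12, where they are direct neighbours in the RefSeq table.

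Of the 8 members, 2 less abundant ones passed the test for a difference between mutant and wild-type leaves. Transcripts of the stromal APX7 fell to 0.696 of the WT level in osatg5-1. Those of the peroxisomal APX3 were called 4.39-fold higher in osatg5-1, on 4 to 7 counts per WT library. APX3 passed the filter on low counts only through its mutant libraries, and its call was lost without osatg5-1 replicate 3 (edgeR adjusted p = 0.0524). The other 6 members did not pass the test, which does not show that their levels were equal. Of the 23074 tested loci, 16.4% were called in either direction, 8.23% higher and 8.21% lower (edgeR quasi-likelihood test, Benjamini-Hochberg adjusted p under 0.05, n = 3 libraries per genotype). The median log2 fold change was -0.02 over the 8 members and 0.0016 over all tested loci. The median size of the log2 fold change, regardless of sign, was 0.082 for the members and 0.20 for all tested loci. It was 0.16 for tested loci not called. These medians are not matched for abundance, so they do not show that the family is more stable than other loci. The libraries are bulk RNA, in which a change in the share of cells that express a gene and a change in RNA per cell cannot be told apart.

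**Figure D1:**
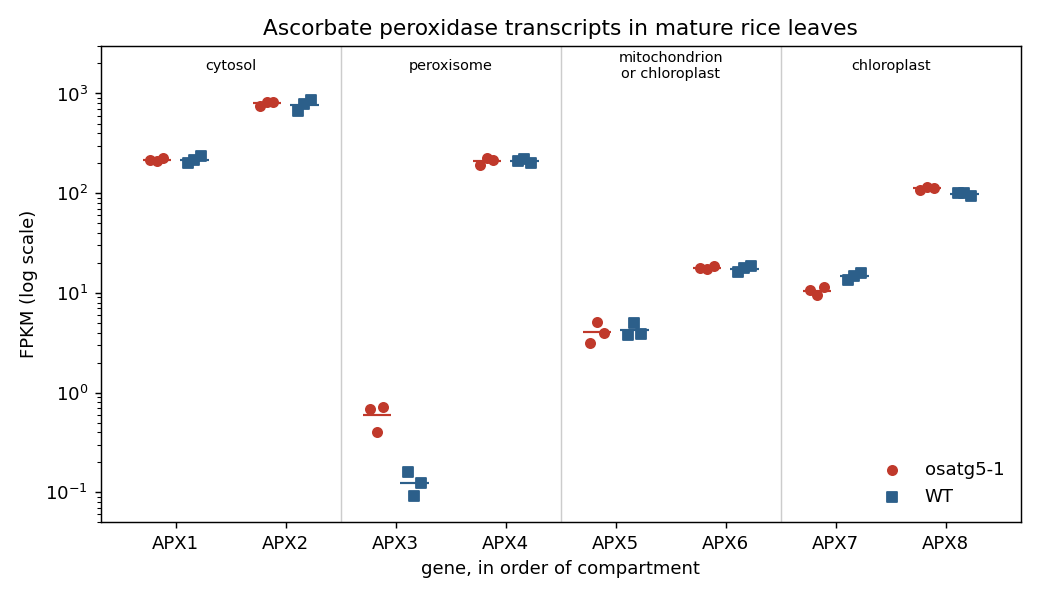
FPKM (the authors' values scaled for gene-model length and library depth, log axis) of each gene in each library, with osatg5-1 as red circles and WT as blue squares, and short lines at the means of 3 libraries. APX2 lies at 666 to 864 FPKM and APX3 at 0.0918 to 0.709 FPKM, and the genotypes are apart at APX3, APX7 and APX8.

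Levels of different genes were compared as FPKM, the authors' values scaled for gene-model length and library depth. APX2 was the most abundant member, followed by APX1 and APX4, then APX8, APX6, APX7, APX5 and APX3. Only APX1 and APX4 overlapped in this order, at 211 to 223 and 190 to 223 FPKM in osatg5-1, and at 201 to 237 and 202 to 219 FPKM in WT. Every other pair of neighbours in the order was separate within each genotype. Summed over the 8 genes, the family held 0.217%, 0.233% and 0.235% of all counts in the osatg5-1 libraries, against 0.204%, 0.225% and 0.239% in the WT libraries. Its summed level was 1368 ± 68.1 FPKM in osatg5-1 and 1333 ± 113 FPKM in WT (SD, n = 3 each), so the means differed by less than the spread between libraries.

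**Figure D2:**
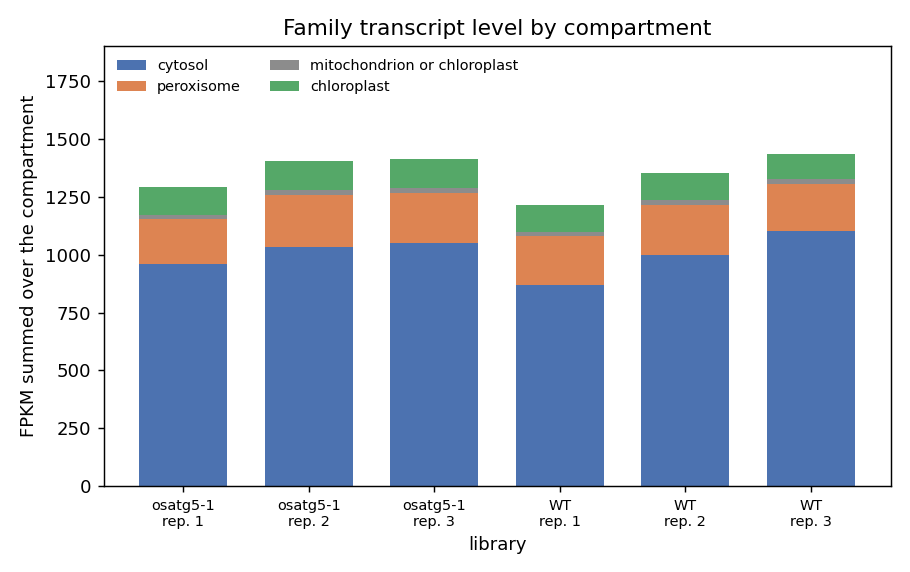
FPKM summed over the genes of each compartment in each library, stacked from 0, with the osatg5-1 libraries left of the WT libraries. The cytosolic genes make up most of every bar, and the 3 osatg5-1 totals, 1290 to 1411 FPKM, lie within the range of the 3 WT totals.

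The cytosolic enzymes APX1 and APX2 carried 74.1% ± 0.551 of the family's FPKM in osatg5-1 and 74.0% ± 2.58 in WT (SD, n = 3 each). CPM is here the count scaled to the library's summed counts over tested loci after TMM normalization. Loss of APX2 has been described in rice to reduce growth and stress tolerance. APX2 was at 1228, 1352 and 1369 CPM in osatg5-1 replicates 1 to 3, against 1134, 1327 and 1485 CPM in the WT replicates. All 3 mutant values lie inside the WT range. It ranked 61 to 82 among all loci by FPKM in the mutant libraries and 66 to 82 in WT. APX1, the other cytosolic enzyme, was at 277, 273 and 289 CPM in osatg5-1, against 269, 285 and 320 CPM in WT, and again the genotypes overlapped. The log2 fold change was 0.0015 ± 0.096 (SE) for APX2 and -0.06 ± 0.075 for APX1. Their 95% intervals allow changes between -13.7% and 16.1% for APX2 and between -14.5% and 7.85% for APX1. Both genes varied more among the WT libraries, where the highest value was 1.31 times the lowest for APX2 and 1.19 times for APX1, than among the mutant libraries, at 1.11 (APX2) and 1.06 times (APX1), a difference in spread that was not tested. The ratio of APX2 to APX1 FPKM was 3.48, 3.88 and 3.71 in osatg5-1, against 3.31, 3.65 and 3.64 in WT. APX2 was thus more than 3 times as abundant as APX1 per unit of length in each library.

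The peroxisomal pair was very uneven, and its minor member was called higher on few counts. APX4, which in rice has been linked to the timing of leaf senescence, was at 360, 398 and 383 CPM in osatg5-1, against 386, 401 and 376 CPM in WT. The lowest value is in osatg5-1 replicate 1 and the highest in WT replicate 2, and the genotypes overlap. Its log2 fold change was -0.03 ± 0.065 (SE), with a 95% interval of -11.3% to 8.52%. In osatg5-1 replicate 1 alone, the deposited FPKM of APX4, 190, was 5.61% lower than its count and library total give. The gene length used for this is the one implied by the counts and FPKM of the libraries themselves. Whether the FPKM or the count is off there was not tested.

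APX3, the other peroxisomal enzyme, had 28, 19 and 36 counts in the osatg5-1 libraries, against 7, 4 and 5 counts in the WT libraries. These counts are 0.880, 0.520 and 0.905 CPM in osatg5-1 and 0.222, 0.128 and 0.165 CPM in WT, and single counts may not be single fragments. Every mutant library is above every WT library, and the lowest mutant value is more than 2 times the highest WT value. The log2 fold change was 2.13 ± 0.46 (SE), or 4.39-fold with a 95% interval of 2.17 to 8.88 (edgeR adjusted p = 0.0105). APX3 was tested only because its mutant libraries passed the filter on low counts. The separation of the genotypes, the fold, its interval and its p-value are not free of that selection and are not taken as support. Among tested loci averaging under 1 CPM, 9.35% were called in either direction. Without osatg5-1 replicate 3, where the call was lost, the log2 fold change was 2.00. On log2(FPKM + 1), a scale that shrinks changes of rarely read genes, the difference was 0.50.

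The higher reading of APX3 in osatg5-1 hardly altered the summed level of the peroxisomal pair. APX3 made up 0.358%, 0.178% and 0.329% of the pair's FPKM in osatg5-1, against 0.0754%, 0.0420% and 0.0614% in WT. APX3 and APX4 together were at 210 ± 16.98 FPKM in osatg5-1 and 211 ± 8.02 FPKM in WT (SD, n = 3 each). That is 15.4% ± 0.570 of the family in osatg5-1 and 15.9% ± 1.63 in WT. The osatg5-1 values include replicate 1, at 191 FPKM for the pair, where the FPKM and the count of APX4 disagree. By the same comparison, the FPKM of APX3 was 4.97% and 4.72% lower than its counts give in WT replicates 1 and 2.

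**Figure D3:**
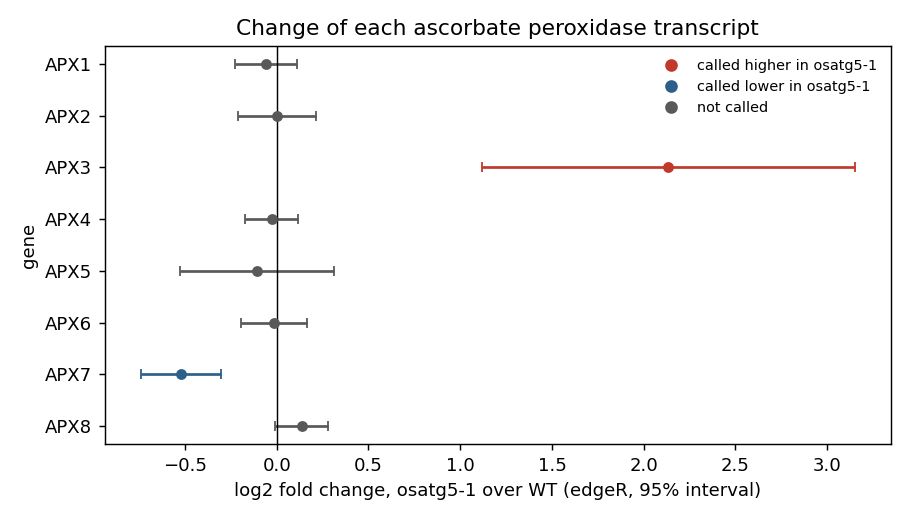
Log2 fold change of each gene in osatg5-1 over WT from edgeR, with 95% intervals. APX3 lies at 2.13 with the widest interval, APX7 at -0.52, and the intervals of the other 6 genes include 0.

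APX5 and APX6, neighbours on chromosome 12, were minor members in both genotypes. APX6 was at 25.7, 25.6 and 27.5 CPM in osatg5-1, against 24.6, 26.5 and 28.4 CPM in WT, and APX5 was at 4.65, 7.49 and 5.81 CPM in osatg5-1, against 5.84, 7.49 and 6.01 CPM in WT. The genotypes overlapped at both genes. The log2 fold changes were -0.014 ± 0.082 for APX6 and -0.11 ± 0.19 for APX5 (SE), and the 95% interval runs from -12.7% to 12.3% for APX6 and from -30.5% to 24.3% for APX5. The wider interval goes with fewer counts, 653 in osatg5-1 and 600 in WT over 3 libraries for APX5, against 2847 and 2464 for APX6. Their summed level was 22.0 ± 1.11 FPKM in osatg5-1 and 21.7 ± 1.38 FPKM in WT (SD, n = 3 each), 1.61% and 1.63% of the family. The sources used here do not say how reads that fit more than 1 copy were counted, so the split of reads between these genes, and between other similar members, is uncertain.

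In the chloroplast pair the minor member was called lower and the major member was not called. APX7, the stromal enzyme, was at 18.0, 16.2 and 19.5 CPM in osatg5-1, against 23.7, 25.9 and 27.7 CPM in WT. The highest mutant value is below the lowest WT value. The log2 fold change was -0.52 ± 0.098 (SE), or 0.696 of the WT level with a 95% interval of 0.598 to 0.809 (edgeR adjusted p = 0.0053), and APX7 was called lower with each library left out in turn. APX7 ranked 7697 to 8591 among all loci by FPKM in osatg5-1 and 5552 to 6464 in WT.

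APX8, the thylakoid-bound enzyme, was at 216, 235 and 228 CPM in osatg5-1, against 211, 210 and 197 CPM in WT. The mutant libraries were all above the WT libraries, but the difference did not pass the test, at a log2 fold change of 0.14 ± 0.065 (SE), a 95% interval of -0.533% to 21.4% and an edgeR adjusted p of 0.19. APX3, APX7 and APX8 were the 3 of 8 members at which the genotypes did not overlap, 2 of them higher and 1 lower in osatg5-1. Of these, APX3 was tested only through its mutant libraries. Over all tested loci the genotypes did not overlap at 35.4%, 17.6% higher and 17.8% lower.

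FPKM of APX8 was 10.1, 12.1 and 9.92 times that of APX7 in the osatg5-1 libraries, against 7.51, 6.83 and 5.90 times in the WT libraries. The smallest ratio in the mutant is above the largest in WT. This follows from the separation of APX7 and of APX8 given above, and the ratio itself was not tested. APX7 made up 8.61% ± 0.839 of the FPKM of the pair in osatg5-1 and 13.01% ± 1.38 in WT (SD, n = 3 each). Because APX8 dominated, the summed level of the pair was 122 ± 4.47 FPKM in osatg5-1 and 113 ± 3.29 FPKM in WT, a log2 ratio of 0.11 on FPKM and 0.076 on CPM, with the sign of APX8 and not of APX7. The pair's share of the family was 8.93% ± 0.160 in osatg5-1 and 8.51% ± 0.902 in WT.

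**Figure D4:**
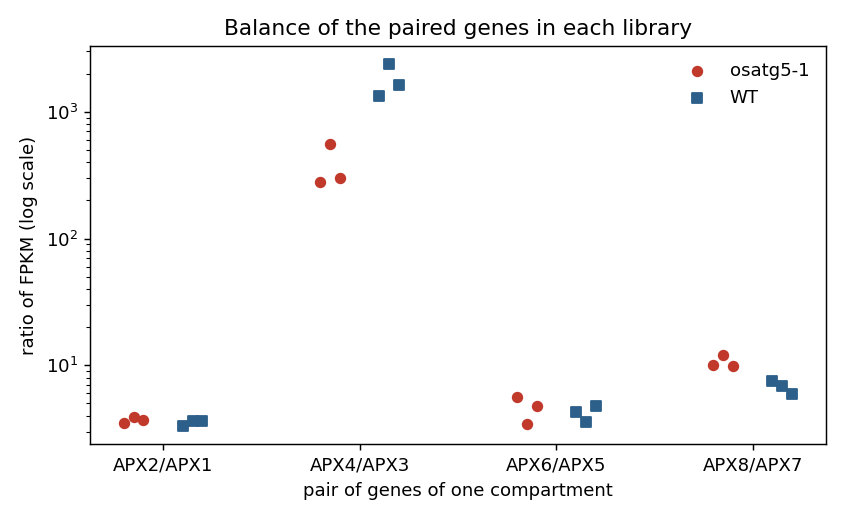
Ratio of FPKM (log axis) of the more to the less abundant gene of each pair in each library, with osatg5-1 as red circles and WT as blue squares. The genotypes are apart at APX4/APX3, with means of 381 in osatg5-1 and 1778 in WT. They are also apart at APX8/APX7, with means of 10.7 in osatg5-1 and 6.74 in WT, and overlap at the other pairs. The WT ratios of APX4/APX3 rest on 7, 4 and 5 counts of APX3, which was tested only through its mutant libraries.

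The members fell into different ranges of abundance, and neither called member, APX3 or APX7, was among the abundant ones. APX5 and APX6, also less abundant, were not called. APX1, APX2, APX4 and APX8 averaged over 100 CPM. Of these, 0 of 4 were called by edgeR, DESeq2 or limma-voom, and 0 of 4 had an unadjusted p under 0.05 with any of these tools, whereas 27.4% of the 1695 tested loci at that level were called by edgeR. With 4 genes, this is a description of the genes and not a test against other loci.

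**Figure D5:**
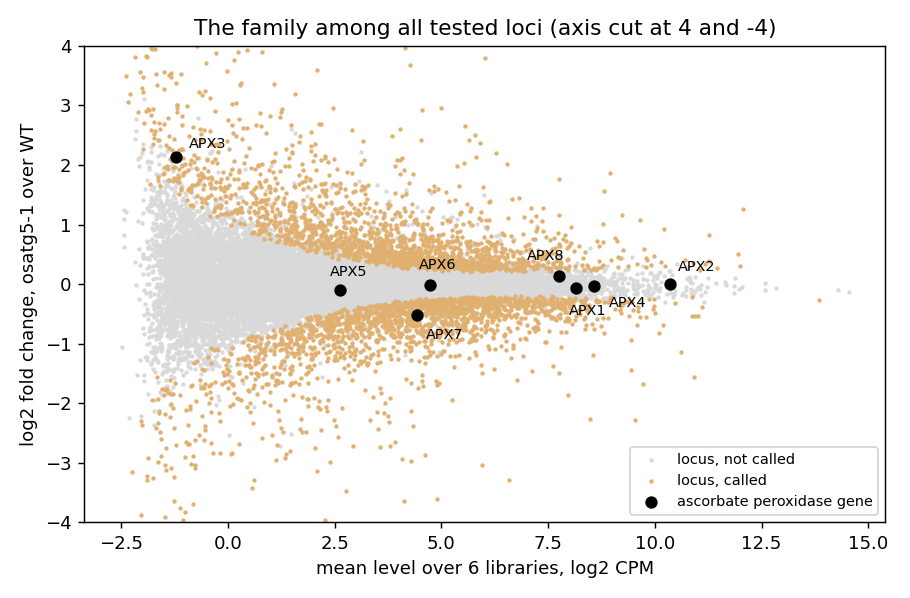
Log2 fold change in osatg5-1 over WT against the mean level (log2 CPM over 6 libraries) for all 23074 tested loci, grey where not called and tan where called, with the 8 family members in black. APX7 and APX3 lie among called loci, and the other members lie in the grey band. The vertical axis ends at 4 and -4, beyond which 91 loci lie.

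Within WT, the libraries did not rank the members alike. APX1, APX2, APX6 and APX7 were all highest in WT replicate 3 and lowest in WT replicate 1, whereas APX8 was highest in WT replicate 1 and lowest in WT replicate 3. In osatg5-1, APX1, APX2, APX3, APX6 and APX7 were highest in replicate 3, the deepest library, and APX4, APX5 and APX8 were highest in replicate 2. Depth was removed from these values by scaling, and whether it still plays a part was not tested.

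Outside the family, the tested loci whose profile over the 6 libraries was most like that of APX2 were LOC_Os07g39710 and LOC_Os03g16010. Their centred log2 CPM differed from that of APX2 by a root mean square of 0.0244 and 0.0263 over the 6 libraries, out of 23066 loci compared. Because both were picked over all 6 libraries, their difference between genotypes is set by that of APX2 and is not tested. No table used here annotates either locus.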

How the data were processed

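The authors deposited raw counts per locus for the 6 libraries and, in 1 file per library, FPKM for the same loci, per the file headers. HISAT2, a read aligner, and IRGSP-1.0, a rice genome build, are named in the submitters' processing notes, which give no roles or order. How reads were counted, with which strand setting and gene models, is not given in the sources used here. Reads of overlapping, antisense or similar loci may therefore be split between them. The libraries were made with a stranded kit, per the labels' protocols. Counts were tested with edgeR 4.0.16 (R 4.3.3): filterByExpr (minimum count 10, total 15), TMM scaling, the quasi-likelihood test of genotype with no other term, and Benjamini-Hochberg adjustment over the 23074 tested loci, called at an adjusted p under 0.05. The standard error is the size of the log2 fold change divided by the square root of F, and 95% intervals use the fit's degrees of freedom. Compartment sums and ratios use FPKM and have no test.

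Loci with a count of 2 outnumbered those with a count of 1 by 2.585 to 2.83 times in every library, so single counts may not be single fragments. At these depths 3 counts correspond to 0.0762 to 0.0970 CPM of the full library total, without TMM normalization. Alternatives were RLE scaling, scaling by library size, a low-count filter of 1 CPM in 3 libraries or none at all, limma-voom (limma 3.58.1), DESeq2 1.42.0, limma on log2(FPKM + 1) and log2(FPKM + 0.1), a replicate block and leaving out each library. Counts halved, with and without the filter, were added after the data had been seen. All 8 members are named. The rule for other loci was to name pathway genes paired with an ID, of which there were 0, and the 2 loci most like the most abundant member. The members and lists were chosen with earlier results of these data known. Marker lists of leaf, root and panicle could not be matched and gave no result.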

Additional observations from a re-analysis of the deposited data

How the results depend on the processing

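APX7 stayed lower and called under all 17 alternatives, at log2 fold changes of -0.58 to -0.45, and APX8 was never called, at 0.11 to 0.19 on the log2 scale. APX3 stayed higher wherever it was tested. Its log2 fold change ran from 1.96 to 2.36 with 1 library left out (edgeR adjusted p 0.0154 to 0.0524) and from 0.50 to 2.17 otherwise, with 0.50 on log2(FPKM + 1), where the added 1 shrinks it by construction. The number of members called higher was 0 without osatg5-1 replicate 3, and 0 to 1 over the libraries left out. It was also 0 with the filter of 1 CPM in 3 libraries and with halved counts, since both filters remove APX3. With halved counts and no filter APX3 was called (log2 fold change 1.97, edgeR adjusted p = 0.0142).

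The members near 0 changed sign but were never called. With 1 library left out, log2 fold changes ran from -0.112 to 0.0140 for APX1, from -0.0950 to 0.0976 for APX2, from -0.0547 to 0.0161 for APX4, from -0.293 to 0.0479 for APX5 and from -0.0643 to 0.0372 for APX6. Library-size scaling gave 0.00875 for APX4 and 0.0229 for APX6, and limma gave 0.0348 and 0.0366 for APX6 on log2(FPKM + 1) and log2(FPKM + 0.1).

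Shares of the family taken from CPM, without length scaling, were for osatg5-1 and WT 70.8% and 71.0% in the cytosol, 1.43% and 1.46% for APX5 and APX6, 10.9% and 10.3% in the chloroplast, and 16.9% and 17.3% in the peroxisome. The log2 ratios of the sums, osatg5-1 over WT, were on CPM and on FPKM -0.0092 and 0.037 in the cytosol, -0.032 and 0.017 for APX5 and APX6, -0.025 and -0.0025 in the peroxisome, and 0.076 and 0.11 in the chloroplast. The cytosol and the pair of APX5 and APX6 thus changed sign with the unit. With APX5 and APX6 added, the chloroplast held 10.5% in osatg5-1 and 10.1% in WT. With the replicate block, APX3 (edgeR adjusted p = 0.0190) and APX7 (0.00567) were called, and 3765 loci in all against 3793 without it. The replicate numbers were not taken as a pairing, since they are not stated to pair plants. The deviations of libraries that share a number correlated at 0.0281, -0.0267 and 0.0878. In all, 3 of 6 libraries correlated best with their own number. With 3 libraries per genotype, these correlations cannot decide whether the libraries were paired. APX3 rests on 83 counts in osatg5-1 and 16 in WT, which limits its precision.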

Other observations

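Neighbours of the family members along the chromosome were described in a comparison added after the data had been seen. Of the 14 nearest tested loci by locus number, 1 on each side of each member and leaving out APX5 and APX6 as neighbours of each other, 1 was called higher and 2 lower in osatg5-1. Over all tested loci 16.4% were called, and with 14 loci nothing is read from the difference. The neighbours of the called members APX3 and APX7 did not pass the test, with log2 fold changes of -0.05 and -0.23 beside APX3 and of -0.28 and 0.78 beside APX7 (edgeR adjusted p 0.20 to 0.75).

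The called neighbours lay beside members that were not called. LOC_Os12g07810, next to APX6, was at 14.2, 13.4 and 16.9 CPM in osatg5-1, against 26.8, 26.8 and 27.8 CPM in WT, a log2 fold change of -0.87 ± 0.099 (SE; edgeR adjusted p = 0.00032). LOC_Os07g49390, next to APX2, was at 16.2 ± 1.62 CPM in osatg5-1 and 11.8 ± 0.248 CPM in WT (SD, n = 3 each), a log2 fold change of 0.47 (edgeR adjusted p = 0.0119). LOC_Os08g43570, next to APX4, had 10, 2 and 3 counts in osatg5-1, against 19, 20 and 22 counts in WT (edgeR adjusted p = 0.0319). It passed the filter on low counts only through its WT libraries, and 2 of its mutant libraries are at or under 3 counts, so no fold is given. No table used here annotates these 3 loci, and whether reads of overlapping loci contribute was not tested.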
